A study of Mus musculus with 6 samples.

Results

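The 34 genes described here encode nuclear receptors and liver-enriched transcription factors. They were chosen by gene symbol and not by a threshold on their measured values, though with earlier results of these data known. All 34 were among the 21297 genes of the liver RNA-seq table. They fell into 4 sterol and xenobiotic sensors, 3 retinoid X receptors, 3 retinoic acid receptors, 4 hormone receptors, 2 peroxisome proliferator-activated receptors (PPARs), 9 orphan receptors and 9 hepatocyte transcription factors. Livers came from male wild-type C57BL/6J mice that were 8 weeks old at the start of the injections. MMAB ASO mice (n = 3) were injected intraperitoneally with 50 mg/kg of an antisense oligonucleotide against *Mmab* mRNA once a week over 6 weeks, and CON ASO mice (n = 3) were given a control oligonucleotide on the same schedule. Livers were removed 48 h after the final dose, and both groups therefore carried an oligonucleotide. MMAB is a mitochondrial enzyme that makes the adenosyl form of vitamin B12, and the study asked how its loss alters cholesterol metabolism. Each group holds replicates numbered 1, 2 and 4 in the labels. The library names also carry a sample index, which is the same for liver 1 of both groups. The indices of MMAB ASO livers 2 and 4 are higher than those of all other livers. What the indices stand for is not stated.

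Nuclear receptors are transcription factors whose ligand-binding domain senses sterols, bile acids, retinoids, fatty acids, steroid and thyroid hormones or xenobiotics, and many bind DNA as a heterodimer with a retinoid X receptor (RXR). In the liver they set the rates of cholesterol, bile acid, drug and lipid metabolism. Hepatocyte identity rests on a cross-regulating network of HNF4A, FOXA, C/EBP, ONECUT and PROX1 proteins, which open and occupy the enhancers of genes for plasma proteins and metabolic enzymes.

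Values are CPM (reads scaled to each library's total), and 1 read was worth an estimated 0.0181 to 0.0224 CPM. *Mmab* itself was at 1.87, 2.69 and 1.80 CPM in MMAB ASO livers 1, 2 and 4, against 6.31, 5.30 and 6.83 CPM in CON ASO livers 1, 2 and 4 (log2 fold change -1.55, adjusted p = 0.00225, limma). The tissue label fitted its markers, since 11 hepatocyte markers measured here summed to 59822 to 74284 CPM in MMAB ASO livers and 69357 to 82030 CPM in CON ASO livers. Markers of other liver cells were also present, and their sums did not overlap between groups for endothelial and stellate cells. The 14 sinusoidal endothelial markers summed to 111 to 129 CPM in MMAB ASO livers and 51.2 to 77.8 CPM in CON ASO livers, with 8 of 14 higher at an adjusted p under 0.05 (limma). The 13 stellate cell markers summed to 159 to 186 CPM in MMAB ASO livers and 93.8 to 123 CPM in CON ASO livers, with 7 of 12 tested higher. Kupffer cell and macrophage markers summed to 76.2 to 127 CPM in MMAB ASO livers and 33.6 to 119 CPM in CON ASO livers, and 2 of 11 tested were higher. Of all 11565 genes tested with limma, 1.87% were higher at that threshold. The endothelial and stellate sums each had an exact two-sided permutation p of 0.1, the smallest that 3 livers against 3 allow, and 0.3 after adjustment over the 6 marker sums. In whole liver, fewer cells of a type and less RNA per cell cannot be told apart. CON ASO liver 1 stood apart, with 83.5% of its summed CPM from protein-coding genes against 72.4% to 76.8% in the other 5 livers.

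Of the 34 members, 32 had a mean of at least 1 CPM and were tested, and *Rarb* and *Nr2f1* were below it. *Foxa3*, lower in MMAB ASO livers, was the 1 member of 32 that passed an adjusted p of 0.05 from limma, against 4.09% of all 11565 genes tested, 1.87% of them higher and 2.22% lower. At the study's own thresholds, an unadjusted p of at most 0.05 with a change of at least 1.5-fold, 3 of 32 members passed, namely *Foxa3* and *Esr1*, both lower, and *Nr1i3*, higher. The background at those thresholds was 9.07%. The groups did not overlap for 6 of 32 members, against 22.7% of all genes tested. These were *Foxa3*, *Cebpa* and *Rara*, lower in MMAB ASO livers, and *Nr1i3*, *Rxrb* and *Thra*, higher. At an unadjusted p under 0.05 from limma there were 7 of 32 members (21.9%), 3 higher and 4 lower, against 17.8% of all genes tested. By each of these counts the members' share was near that of all genes. Their median log2 fold change was -0.02, against 0.03 for all genes tested, and 19 of 32 lay within 0.2 of 0. At the study's thresholds 5 members passed without MMAB ASO liver 1, against 1053 of all 11565 genes. Without CON ASO liver 2 it was 1 member, against 1117 genes. Without MMAB ASO liver 1 the groups did not overlap for 12 members, and without CON ASO liver 1 for 10. Groups part more easily with fewer livers, so the 22.7% does not apply to those 2 counts. The share over all genes was not computed for them.

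**Figure D1:**
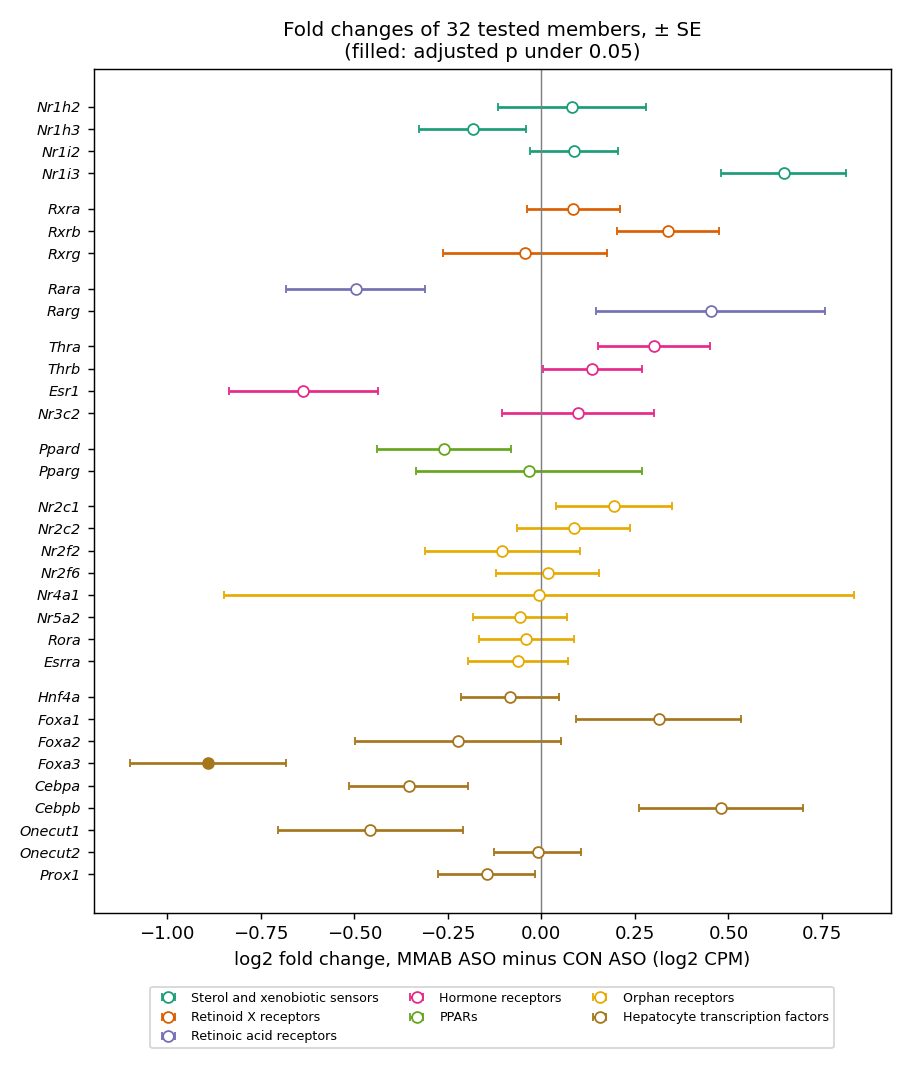
Log2 fold change (MMAB ASO minus CON ASO, in log2 CPM) of the 32 tested members on the x axis, with bars for the SE, and genes down the y axis in the order of their roles. The filled point is *Foxa3* at -0.89, the 1 member past an adjusted p of 0.05, and *Nr1i3* at 0.65 lies farthest to the right.

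Per kb of annotated exon, the scale on which genes can be compared, the members spanned about 3 orders of magnitude as drawn in the plot of levels. *Cebpa* stood highest with a mean of 65.6 CPM per kb over the 6 livers (range 44.2 to 76.0), followed by *Hnf4a* at 52.8 (47.4 to 59.6) and *Rxra* at 51.8 (47.9 to 56.8). *Cebpb* followed at 40.7 CPM per kb (26.2 to 61.1). The ranges of these 4 overlapped, so their order is not resolved. Next were *Nr1i3* at 23.2 CPM per kb (14.4 to 33.2), *Foxa3* at 18.2 (9.81 to 28.4) and *Nr1i2* at 17.3 (16.4 to 19.4), whose ranges overlapped one another. The lowest means were those of *Rarb* at 0.129 (0.0575 to 0.202) and *Nr2f1* at 0.0574 CPM per kb (0.0413 to 0.105).

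**Figure D2:**
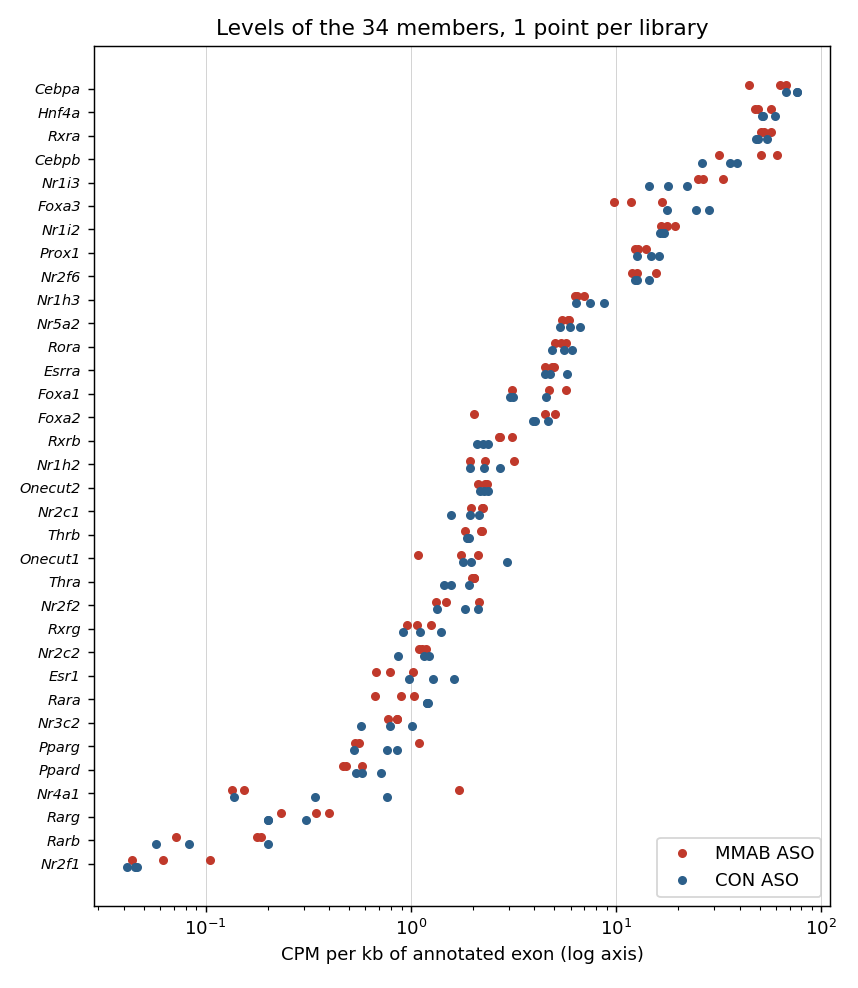
CPM per kb of annotated exon (log axis) for all 34 members, sorted by their mean, with 1 point per liver, MMAB ASO in red and CON ASO in blue. *Cebpa*, *Hnf4a*, *Rxra* and *Cebpb* overlap at the top, *Rarb* and *Nr2f1* lie lowest, and the colours part for *Foxa3* and *Nr1i3*.

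Among the hepatocyte transcription factors, *Foxa3* fell in MMAB ASO livers while *Foxa1* and *Foxa2* of the same family did not pass the test in either direction. FOXA proteins are winged-helix pioneer factors that open liver chromatin, and FOXA3 is the most abundant of them in adult mouse liver. *Foxa3* is a minus-strand gene of chromosome 7 (GRCm38, 19013284 to 19023538) and overlaps no other annotated gene. The 250 bases before its RefSeq start (GRCm38.p6, chr7:19023540-19023789, minus strand, written 5′ to 3′) are printed because it is the member called, with matches to the searched promoter motifs in capitals.
Foxa3: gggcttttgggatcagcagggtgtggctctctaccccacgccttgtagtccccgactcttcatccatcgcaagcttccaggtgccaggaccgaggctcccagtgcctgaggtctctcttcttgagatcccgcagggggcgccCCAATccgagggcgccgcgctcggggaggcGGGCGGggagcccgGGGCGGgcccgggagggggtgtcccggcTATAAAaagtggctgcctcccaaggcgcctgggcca
The capitals mark a CCAAT box 108 to 104 bases before the start, GC boxes (GGGCGG) at 78 to 73 and at 64 to 59 bases, and a TATA box (TATAAA) at 36 to 31 bases. Counting both strands, TATAAA was in 12.4% of the 32851 RefSeq windows of this length, CCAAT in 33.9% and GGGCGG in 32.7%. A match describes the letters and is not evidence of a bound site.

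*Foxa3* was at 19.97, 34.2 and 23.9 CPM in MMAB ASO livers 1, 2 and 4, against 36.0, 57.9 and 50.1 CPM in CON ASO livers 1, 2 and 4. All 3 MMAB ASO livers lay below all 3 CON ASO livers, with MMAB ASO liver 2 and CON ASO liver 1 nearly touching. The log2 fold change was -0.89 (SE 0.21, adjusted p = 0.0362, limma), a level 46.1% lower in MMAB ASO livers. The direction held in every alternative run, but the call did not. Adjusted p was 0.0931 without MMAB ASO liver 1, 0.121 without MMAB ASO liver 4 and 0.149 without CON ASO liver 4, and it was 0.0263 without CON ASO liver 1, the liver that stood apart. It was 0.0745 to 0.0950 with median-ratio, quantile or protein-coding scaling, without a filter on low genes, or without a trend in the variance prior. The markers of hepatocytes as a sum were at 0.862 times their CON ASO mean in MMAB ASO livers with overlapping groups. The part of cell composition in the *Foxa3* difference was not tested.

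*Foxa1* was at 15.05 ± 4.38 CPM in MMAB ASO livers and 12.0 ± 2.84 in CON ASO livers (SD, n = 3 each), with a log2 fold change of 0.31 (SE 0.22). *Foxa2*, which in mouse liver takes part in bile acid and fasting responses, was at 9.17 ± 3.82 CPM in MMAB ASO livers and 9.98 ± 0.960 in CON ASO livers (SD, n = 3 each). MMAB ASO liver 1 held the low value of *Foxa2*, 4.82 CPM, and the other 5 livers were at 9.31 to 12.0 CPM. The ratio of *Foxa3* to *Foxa1* was 1.93, 1.79 and 1.52 in MMAB ASO livers 1, 2 and 4, against 2.36, 5.70 and 4.78 in CON ASO livers 1, 2 and 4. This ratio did not overlap between groups, with an exact two-sided permutation p of 0.1, the smallest possible, and 0.2 after adjustment over 4 ratios of members.

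C/EBP alpha and C/EBP beta bind the same DNA motif, the alpha form being the main one of the resting hepatocyte and the beta form an acute-phase and regeneration factor. *Cebpa* was at 116, 177 and 166 CPM in MMAB ASO livers 1, 2 and 4, against 200, 200 and 178 CPM in CON ASO livers 1, 2 and 4. The groups did not overlap, though MMAB ASO liver 2 and CON ASO liver 4 were about 1 CPM apart. The log2 fold change was -0.35 (SE 0.16, adjusted p = 0.272, limma) and did not pass. *Cebpb* was at 91.9, 76.1 and 47.9 CPM in MMAB ASO livers, against 53.7, 39.3 and 58.5 CPM in CON ASO livers. Its groups overlapped because MMAB ASO liver 4 sat within the CON ASO range, and its log2 fold change of 0.48 (SE 0.22, adjusted p = 0.279, limma) did not pass. The ratio of *Cebpb* to *Cebpa* was 0.790, 0.430 and 0.289 in MMAB ASO livers 1, 2 and 4 and 0.269, 0.196 and 0.329 in CON ASO livers 1, 2 and 4. It overlapped between groups, with an exact two-sided permutation p of 0.2 (adjusted 0.267 over the 4 ratios).

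None of the other hepatocyte factors passed the test. *Hnf4a*, the nuclear receptor that stands at the centre of the network, was at 248 ± 24.9 CPM in MMAB ASO livers and 262 ± 22.1 in CON ASO livers (SD, n = 3 each), a log2 fold change of -0.08 (SE 0.13). *Prox1*, a homeobox factor of hepatoblasts and hepatocytes, was at 109 ± 6.61 CPM in MMAB ASO livers and 122 ± 15.1 in CON ASO livers. *Onecut1* (HNF6), which acts in bile duct and hepatocyte differentiation, was at 8.72, 7.18 and 4.45 CPM in MMAB ASO livers and 12.0, 8.10 and 7.39 in CON ASO livers, and these ranges overlapped (log2 fold change -0.46, SE 0.25). Its relative *Onecut2* differed little between livers, at 36.5 ± 1.92 CPM in MMAB ASO livers and 36.8 ± 1.73 in CON ASO livers. *Hnf4a* and *Prox1* both overlap antisense genes, and whether reads were counted by strand is not given in the sources used here. The antisense gene *Prox1os*, which shares 419 bases with *Prox1*, was at 2.67, 2.09 and 2.38 CPM in MMAB ASO livers, against 6.63, 4.60 and 4.75 CPM in CON ASO livers (log2 fold change -1.15, adjusted p = 0.00925, limma).

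**Figure D3:**
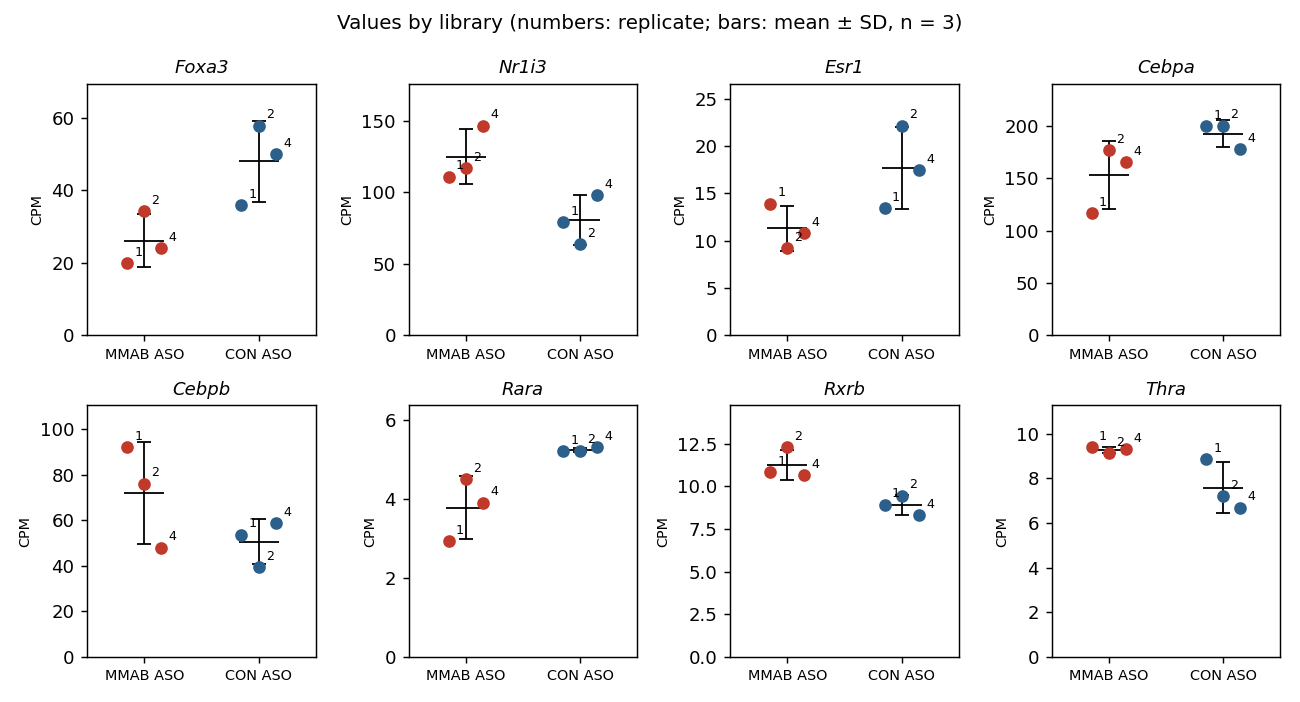
CPM (y axes, from 0) of 8 members in each liver, MMAB ASO at left in red and CON ASO at right in blue, with the replicate number at each point and black bars for the mean ± SD (n = 3). *Foxa3* is lower and *Nr1i3* higher in every MMAB ASO liver, while *Esr1* and *Cebpb* overlap through single livers.

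Of the sterol and xenobiotic sensors, *Nr1i3* had the largest positive fold change of all tested members, with an adjusted p just above the threshold. *Nr1i3* encodes CAR, the receptor that induces drug-metabolizing enzymes and takes part in bilirubin and bile acid clearance. It is a plus-strand gene of chromosome 1 (GRCm38, 171213970 to 171220701). The 250 bases before its RefSeq start (GRCm38.p6, chr1:171213720-171213969, plus strand) are given as those of the member with the next smallest p, for comparison with *Foxa3*.
Nr1i3: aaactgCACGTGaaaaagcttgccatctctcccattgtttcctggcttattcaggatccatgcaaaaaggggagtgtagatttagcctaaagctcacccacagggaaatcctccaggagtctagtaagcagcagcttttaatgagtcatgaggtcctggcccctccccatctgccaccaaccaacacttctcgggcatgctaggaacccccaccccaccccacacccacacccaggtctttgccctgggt
The capitals mark the single match, a CACGTG E-box of the kind bound by clock and MYC proteins, 244 to 239 bases before the start, a motif in 6.02% of all windows. The window holds 2 CpG dinucleotides and the *Foxa3* window 18, against a median of 6 for all windows and 13 for the 50 windows of the 32 members that had one. Other motifs searched on both strands were the nuclear receptor half-site AGGTCA, the FOXA core TGTTTAC, the ONECUT core ATTGAT and the C/EBP core TTGCNNAA. Neither printed window holds any of them, which says nothing about the factors. Over the members' windows, AGGTCA was in 14.0% and GGGCGG in 52.0%, against 14.0% and 32.7% of all windows, as a description without a test.

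*Nr1i3* was at 111, 117 and 147 CPM in MMAB ASO livers 1, 2 and 4, against 79.2, 63.5 and 98.1 CPM in CON ASO livers 1, 2 and 4. Every MMAB ASO liver lay above every CON ASO liver. The log2 fold change was 0.65 (SE 0.17, 56.6% higher), with an adjusted p of 0.0535 from limma. Across the alternatives the adjusted p ran from 0.0211 with array weights to 0.220 without MMAB ASO liver 4. The gene *Tomm40l* overlaps 4691 bases of *Nr1i3* on the opposite strand, so reads there can count for either gene if strand was not used. *Tomm40l* was at 19.3, 19.01 and 27.1 CPM in MMAB ASO livers, against 20.3, 16.3 and 19.2 CPM in CON ASO livers (log2 fold change 0.21, adjusted p = 0.544, limma).

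PXR, the other xenobiotic receptor, is encoded by *Nr1i2*. It was at 45.6 ± 3.77 CPM in MMAB ASO livers and 42.9 ± 1.02 in CON ASO livers (SD, n = 3 each), a log2 fold change of 0.09 (SE 0.12). The liver X receptors sense oxysterols and drive cholesterol efflux and fatty acid synthesis. *Nr1h3* (LXR alpha) was at 16.5 ± 0.919 CPM in MMAB ASO livers and 18.9 ± 3.0 in CON ASO livers, a log2 fold change of -0.18 (SE 0.14). *Nr1h2* (LXR beta) was at 8.28 ± 2.12 CPM in MMAB ASO livers and 7.74 ± 1.32 in CON ASO livers, a log2 fold change of 0.08 (SE 0.20). None of these 3 passed the test, and their ranges overlapped between groups.

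The RXRs are the shared partners of most of these receptors. *Rxra*, the main hepatic form, was at 279, 310 and 286 CPM in MMAB ASO livers and 295, 267 and 262 CPM in CON ASO livers (log2 fold change 0.09, SE 0.12), and the groups overlapped. *Rxrb* was at 10.8, 12.3 and 10.7 CPM in MMAB ASO livers, against 8.92, 9.46 and 8.32 CPM in CON ASO livers. Its groups did not overlap, and the log2 fold change of 0.34 (SE 0.14, adjusted p = 0.221, limma) did not pass. *Rxrg* was at 2.51 ± 0.348 CPM in MMAB ASO livers and 2.61 ± 0.556 in CON ASO livers. The ratio of *Rxra* to *Rxrb* was 25.7, 25.3 and 26.8 in MMAB ASO livers and 33.1, 28.3 and 31.5 in CON ASO livers. It was lower in every MMAB ASO liver, with an exact two-sided permutation p of 0.1, the smallest possible, and 0.2 after adjustment over the 4 ratios.

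The retinoic acid receptors are held at low levels in whole liver, and the 2 tested forms had fold changes of opposite sign. *Rara* was at 2.93, 4.49 and 3.91 CPM in MMAB ASO livers 1, 2 and 4, against 5.21, 5.22 and 5.30 CPM in CON ASO livers 1, 2 and 4. The CON ASO livers were nearly equal and all above the MMAB ASO livers, yet the log2 fold change of -0.50 (SE 0.19, adjusted p = 0.184, limma) did not pass. *Rarg* was at 0.990, 1.47 and 1.70 CPM in MMAB ASO livers and 1.31, 0.861 and 0.860 CPM in CON ASO livers, which overlapped (log2 fold change 0.45, SE 0.31). *Rarb*, itself a classical target of retinoic acid, was at 0.762 ± 0.333 CPM in MMAB ASO livers and 0.601 ± 0.406 in CON ASO livers and was not tested.

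Among the hormone receptors *Esr1* was the one at the study's thresholds. It encodes estrogen receptor alpha, which male mouse hepatocytes also express, and it is a plus-strand gene of chromosome 10 (GRCm38, 4611593 to 5005614). *Esr1* was at 13.9, 9.19 and 10.8 CPM in MMAB ASO livers 1, 2 and 4, against 13.4, 22.2 and 17.4 CPM in CON ASO livers 1, 2 and 4. MMAB ASO liver 1 and CON ASO liver 1 overlapped, and the others were apart. The log2 fold change was -0.64 (SE 0.20, 35.7% lower), with an adjusted p of 0.107 from limma and a range of 0.0483 to 0.272 over the alternatives. Without CON ASO liver 1 the fold change was -0.82 and without CON ASO liver 2 it was -0.46, the extremes of the leave-out fits.

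The thyroid hormone receptors mediate the effect of triiodothyronine on lipid metabolism, with the beta form the main one of hepatocytes. *Thra* was at 9.39, 9.13 and 9.32 CPM in MMAB ASO livers, against 8.87, 7.19 and 6.69 CPM in CON ASO livers. The groups did not overlap, and the log2 fold change of 0.30 (SE 0.15, adjusted p = 0.324, limma) did not pass. The end of *Thra* shares 1075 bases with *Nr1d1*, which encodes the clock repressor REV-ERB alpha on the opposite strand. *Nr1d1* was at 12.4, 13.8 and 31.7 CPM in MMAB ASO livers, against 39.8, 28.4 and 35.3 CPM in CON ASO livers (log2 fold change -0.96, adjusted p = 0.0900, limma). *Thrb* was at 15.5 ± 1.63 CPM in MMAB ASO livers and 14.0 ± 0.143 in CON ASO livers (SD, n = 3 each). The ratio of *Thrb* to *Thra* was 1.76, 1.78 and 1.46 in MMAB ASO livers and 1.56, 1.95 and 2.12 in CON ASO livers, which overlapped. *Nr3c2*, the mineralocorticoid receptor, was at 5.36 ± 0.295 CPM in MMAB ASO livers and 5.14 ± 1.43 in CON ASO livers.

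PPAR delta and PPAR gamma are fatty acid sensors, the gamma form being low in normal liver and high in fat. *Ppard* was at 3.83 ± 0.450 CPM in MMAB ASO livers and 4.60 ± 0.667 in CON ASO livers (SD, n = 3 each), a log2 fold change of -0.26 (SE 0.18). *Pparg* was at 2.15 ± 0.939 CPM in MMAB ASO livers and 2.12 ± 0.505 in CON ASO livers, a log2 fold change of -0.03 (SE 0.30). Neither passed, and MMAB ASO liver 2 held the highest *Pparg* value of all 6 livers, 3.23 CPM.

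None of the 8 tested orphan receptors passed in limma, 0 had an unadjusted p under 0.05 (17.8% of all genes did), and all 8 had a log2 fold change within 0.2 of 0, from -0.10 to 0.19. *Rora*, an activator of clock and lipid genes, was at 70.1 ± 4.37 CPM in MMAB ASO livers and 72.3 ± 8.03 in CON ASO livers (SD, n = 3 each). *Nr5a2* (LRH-1), a regulator of bile acid synthesis, was at 33.7 ± 1.44 CPM in MMAB ASO livers and 35.2 ± 3.97 in CON ASO livers. *Nr2f6* was at 39.9 ± 5.90 CPM in MMAB ASO livers and 39.2 ± 3.50 in CON ASO livers, which overlapped. *Esrra*, a regulator of mitochondrial genes, was at 20.9 ± 1.13 CPM in MMAB ASO livers and 21.9 ± 2.86 in CON ASO livers. The testicular receptors *Nr2c1* and *Nr2c2* had log2 fold changes of 0.19 (SE 0.16) and 0.09 (SE 0.15). *Nr2f2* (COUP-TFII), which liver endothelial and stellate cells also express, was at 14.2 ± 3.79 CPM in MMAB ASO livers and 15.2 ± 3.41 in CON ASO livers. Its groups overlapped, whereas the marker sums of those cells did not. *Nr2f1* was at 0.537, 0.316 and 0.224 CPM in MMAB ASO livers and 0.236, 0.231 and 0.211 CPM in CON ASO livers, too low to be tested.

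*Nr4a1* (NUR77), an immediate early gene induced by stress and glucagon signals, was the least reproducible member. It was at 6.05, 0.541 and 0.470 CPM in MMAB ASO livers 1, 2 and 4, against 0.483, 2.69 and 1.2 CPM in CON ASO livers 1, 2 and 4. MMAB ASO liver 1 was high alone, so the mean of 2.35 ± 3.20 CPM (SD, n = 3) describes no single MMAB ASO liver. Its log2 fold change of -0.01 had an SE of 0.84, against a median SE of 0.16 for the tested members, and it was -1.20 without MMAB ASO liver 1 and 0.64 without MMAB ASO liver 4, the extremes of the leave-out fits.

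**Figure D4:**
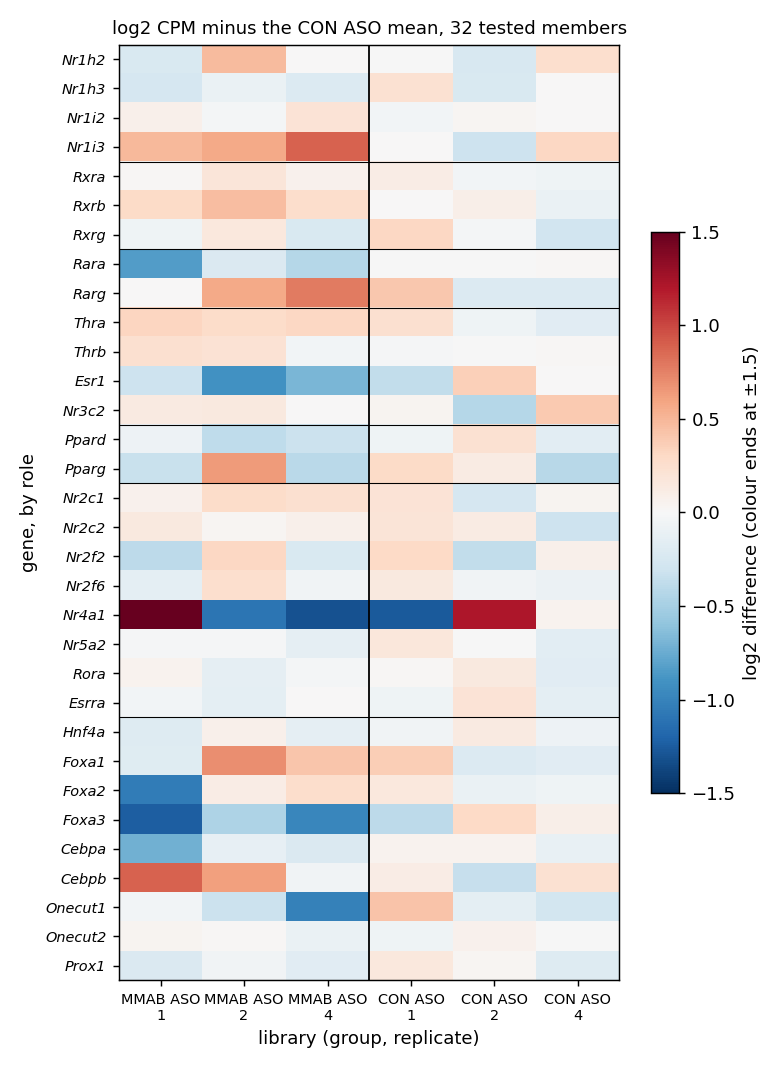
Log2 CPM minus the mean of the CON ASO livers, for the 32 tested members (rows, by role, lines between roles) in each of the 6 livers (columns, MMAB ASO at left). *Foxa3* is blue and *Nr1i3* red across the MMAB ASO columns, *Nr4a1* changes colour from liver to liver, and MMAB ASO liver 1 is lowest for *Foxa2*, *Foxa3*, *Cebpa* and *Rara*.

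Genes that work with the members were taken from 10 lists of known partners and targets, some shared between lists, and are described by how many passed limma's test at the same adjusted threshold. Of the other nuclear receptors 0 of 10 tested passed, with *Nr1d1* having the smallest p, and 0 of 19 coactivators and corepressors did. At an unadjusted p under 0.05 from limma there were 1 and 2 of them, *Nr1d1* and the acetyltransferase pair *Ep300* and *Crebbp*, against 17.8% of all genes tested. *Ep300*, with the smallest p of the cofactors, was at 28.0 ± 4.24 CPM in MMAB ASO livers and 21.6 ± 1.75 in CON ASO livers (SD, n = 3 each, adjusted p = 0.194, limma). Among other liver transcription factors 1 of 18 was higher and 0 were lower, against 1.87% and 2.22% of all genes tested. That gene was *Foxo1*, the insulin-restrained activator of gluconeogenesis, at 59.5, 45.4 and 47.2 CPM in MMAB ASO livers, against 29.3, 31.6 and 36.7 CPM in CON ASO livers. Its groups did not overlap (log2 fold change 0.64, SE 0.14, adjusted p = 0.0307, limma).

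Over the 7 lists of targets, with each gene counted once, 10 of 80 tested genes passed (12.5%), 4 higher and 6 lower, against 4.09% of all genes tested. These lists were chosen with results of these data known, so the difference in share is a description. Among PXR and CAR targets 0 of 12 tested passed in limma and 1 had an unadjusted p under 0.05 (17.8% of all genes tested did). Their median log2 fold change was -0.11, beside the *Nr1i3* values above. *Gstm3*, a glutathione transferase with the smallest p in that list, was at 1.88 ± 0.544 CPM in MMAB ASO livers and 2.96 ± 0.673 in CON ASO livers (SD, n = 3 each, adjusted p = 0.203, limma). Of 13 LXR targets 1 was higher and 0 were lower, and 3 had an unadjusted p under 0.05, against 17.8% of all genes tested. *Abca1* (log2 fold change -0.45, adjusted p = 0.144, limma) and *Lpcat3* (-0.39, adjusted p = 0.181, limma) were lower without overlap between groups but did not pass. *Mylip*, which encodes the ubiquitin ligase IDOL that marks LDL receptor for degradation, was at 6.11, 6.82 and 5.95 CPM in MMAB ASO livers, against 4.30, 2.69 and 2.80 CPM in CON ASO livers (log2 fold change 0.98, adjusted p = 0.0201, limma). The median of the list was 0.01.

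Retinoic acid targets had 2 of 6 tested genes higher and 1 of 6 lower, against 1.87% and 2.22% of all genes tested. The groups of each called gene did not overlap, as for 22.7% of all genes tested. At an unadjusted p under 0.05 from limma there were 5 of 6, against 17.8%. The gene that fell, *Stra6l*, the hepatic receptor for plasma retinol-binding protein, was at 25.9 ± 3.20 CPM in MMAB ASO livers and 46.7 ± 6.87 in CON ASO livers (SD, n = 3 each, adjusted p = 0.00936, limma). The genes that rose act on retinol and retinoic acid as enzymes. *Cyp26a1*, which breaks down retinoic acid, was at 4.0 ± 0.504 CPM in MMAB ASO livers and 1.79 ± 0.726 in CON ASO livers (SD, n = 3 each, adjusted p = 0.0396, limma). *Lrat*, which esterifies retinol for storage, was at 7.26 ± 0.305 CPM in MMAB ASO livers and 4.34 ± 0.926 in CON ASO livers (adjusted p = 0.0362, limma). *Lrat* is also among the stellate cell markers, whose sum was higher in MMAB ASO livers, and the part of those cells in its difference was not tested. Also at an unadjusted p under 0.05, without passing, were *Cyp26b1* (log2 fold change 1.16, adjusted p = 0.125, limma) and *Tgm2* (-0.56, adjusted p = 0.0917, limma).

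Of the other 4 target lists, 6 of 50 tested genes passed (12.0%), 1 higher and 5 lower. Beside this count and those by list below, 4.09% of all genes tested passed, 1.87% higher and 2.22% lower. Of 11 thyroid hormone targets 0 were higher and 1 was lower, the corepressor gene *Hr*, at 0.637 ± 0.124 CPM in MMAB ASO livers and 1.59 ± 0.393 in CON ASO livers (SD, n = 3 each, adjusted p = 0.0385, limma). Of 9 tested PPAR delta and gamma targets, *Fabp4*, a fatty acid carrier of fat, macrophages and endothelium, was higher at 3.79 ± 0.398 CPM in MMAB ASO livers and 1.82 ± 0.675 in CON ASO livers (adjusted p = 0.0387, limma). The sum of endothelial markers was also higher in MMAB ASO livers, and the part of cell composition in the *Fabp4* difference was not tested. *Cidec*, a lipid droplet protein, was lower at 4.11 ± 2.49 CPM in MMAB ASO livers and 13.3 ± 5.36 in CON ASO livers (adjusted p = 0.0202, limma). Of 18 HNF4A targets 0 were higher and 1 was lower, *Apom*, the sphingosine-1-phosphate carrier of HDL, at 56.9, 67.7 and 62.5 CPM in MMAB ASO livers, against 128, 120 and 103 CPM in CON ASO livers (log2 fold change -0.90, adjusted p = 0.00332, limma). Of 15 tested targets of C/EBP, FOXA and ONECUT factors 0 were higher and 2 were lower, beside the lower *Foxa3*, and 2 of 15 had a positive log2 fold change with a list median of -0.22. Of the hepatocyte markers, some of which are in this list too, 2 of 11 were positive, with a median of -0.26. Of all genes tested 55.6% had a positive log2 fold change. In limma 0 of these markers were called and 2 had an unadjusted p under 0.05, against 17.8% of all genes tested. The part of hepatocyte content in the list's values was not tested. *Apcs*, serum amyloid P, was at 25.8, 22.4 and 22.8 CPM in MMAB ASO livers, against 73.4, 37.9 and 73.1 CPM in CON ASO livers (log2 fold change -1.32, adjusted p = 0.00711, limma). *Hamp*, the iron hormone hepcidin, was at 250 ± 72.1 CPM in MMAB ASO livers and 433 ± 45.7 in CON ASO livers (SD, n = 3 each, adjusted p = 0.0417, limma). Over the 10 lists 11 genes passed, 3 without MMAB ASO liver 4, 6 without CON ASO liver 1, 17 without CON ASO liver 2 and 3 without CON ASO liver 4.

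**Figure D5:**
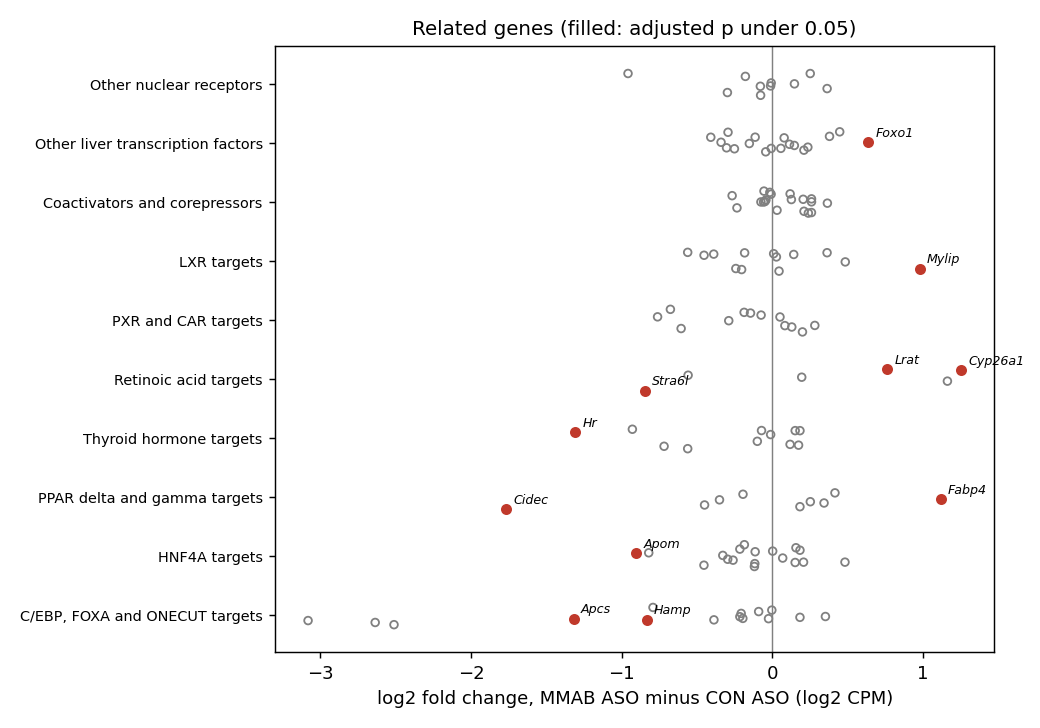
Log2 fold change (MMAB ASO minus CON ASO, in log2 CPM) of each tested gene of the 10 related lists, 1 list per row, filled and named where the adjusted p is under 0.05. Each list holds 0 to 3 called genes, and retinoic acid targets hold 2 higher and 1 lower.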

How the data were processed

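Ribosomal RNA was depleted, and reads were aligned with STAR and quantified with the Partek E/M algorithm by the authors. The deposited values are log2 of CPM scaled by the authors to each library's total with 0.0001 added. They were used as deposited, and only 58.8% to 59.9% of values of up to 20 reads lay within 0.01 of a whole count, so no count test was run. Depth was estimated as 44.7 to 55.4 M reads per library. The groups were compared at genes averaging 1 CPM or more, using limma 3.58.1 (R 4.3.3) with a variance trend, no covariates and Benjamini-Hochberg adjustment over 11565 genes. Fold changes refer to log2(value + 0.0001). Single sums and ratios were tested by exact two-sided permutation (scipy 1.17.1). Replicates were separate mice. The table's end positions are 1 past the last base and were corrected. After this, 93.5% of 20489 matched symbols had the coordinates of GENCODE M21 (GRCm38). Exon lengths came from GENCODE M21 and promoter sequences from RefSeq, in which 32 of 34 members had a window. The members, lists and tests were chosen with earlier results of these data known. Each member called, at the study's thresholds or without overlap between groups is given by liver, and of each list the genes called, or else that with the smallest p. *Crebbp*, *Abca1*, *Lpcat3*, *Cyp26b1* and *Tgm2* are named outside this rule, after their values were seen. A gene set by this rule is not reported here. Other settings tried were 2 pseudocounts (0.1 and 1), 2 filters (none and 5 CPM), 3 scalings (median-ratio, quantile and protein-coding sum), no variance trend, array weights, a replicate block and leaving out each library.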

Additional observations from a re-analysis of the deposited data

How the results depend on the processing

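The 3 livers per group limit what can be called, and several calls changed when 1 liver was left out. Such fits also have fewer livers, so a lost call does not show that the liver left out decided it. Of the 32 tested members, 18 kept the sign of their fold change in every alternative, *Foxa3*, *Nr1i3* and *Esr1* among them, and the other 14 had a log2 fold change of at most 0.22 in size. The count of members past an adjusted p of 0.05 (1, *Foxa3*) was 0 without a filter, with median-ratio, quantile or protein-coding scaling and without a variance trend, and 3 with array weights (*Foxa3*, *Nr1i3*, *Esr1*). Leaving out 1 liver gave 0 to 1 such members and 1 to 5 at the study's thresholds, against 941 to 1165 of all 11565 genes. It gave 7 to 12 members without overlap between groups, for which the share over all genes was not computed. The related genes called (11) numbered 4 without a filter, 7 with a filter of 5 CPM, 7 with quantile normalization, 5 without a variance trend and 3 to 17 with 1 liver left out. The cause of these differences was not tested. Protein-coding scaling moved the members' median to 0.067 and that of all genes to 0.12, against 0.03 as deposited, and the share of calls that were higher to 65.7% of 633, against 45.7% of 473. That share was 34.1% with median-ratio scaling and 34.3% with a filter of 5 CPM. All calls numbered 255 without a filter, 268 with a filter of 5, 768 with array weights and 157 to 536 with 1 liver left out.

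Over the tested genes as a whole the replicate numbers showed no pairing, with correlations of -0.02, 0.05 and -0.01 between deviations of same-numbered livers. A correlation over all genes cannot exclude an effect shared by same-numbered livers in some genes. In a fit blocked on that number, 2 members passed an adjusted p of 0.05, *Foxa3* (0.00592) and *Nr1i3* (0.0225), and 430 genes in all.

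Signs turned as follows on the log2 scale. With protein-coding scaling *Rxrg* was 0.044, *Pparg* 0.056, *Nr4a1* 0.083, *Nr5a2* 0.032, *Rora* 0.049, *Esrra* 0.026, *Hnf4a* 0.0054 and *Onecut2* 0.079. With quantile normalization *Rora* was 0.024, *Hnf4a* 0.014 and *Onecut2* 0.039. *Nr2f6* was -0.0087 with median-ratio scaling and -0.011 with array weights, and *Nr4a1* was 0.030 and 0.14 with pseudocounts of 0.1 and 1. With 1 liver left out the range was -0.11 to 0.24 for *Nr1h2*, -0.19 to 0.11 for *Rxrg*, -0.12 to 0.29 for *Nr3c2*, -0.37 to 0.15 for *Pparg*, -0.070 to 0.18 for *Nr2c2*, -0.31 to 0.043 for *Nr2f2*, -0.0998 to 0.0974 for *Nr2f6*, -1.20 to 0.64 for *Nr4a1*, -0.14 to 0.025 for *Nr5a2*, -0.13 to 0.035 for *Rora*, -0.14 to 0.040 for *Esrra*, -0.47 to 0.19 for *Foxa2* and -0.043 to 0.034 for *Onecut2*.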

Other observations

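*Lcn2*, *Saa1* and *Saa2*, acute-phase genes among the C/EBP targets, had the largest fold changes of any related list without passing the test. They are named here after their values were seen. Of the same list *Apcs* and *Hamp* passed, as given above, and *Orm1* had a smaller change (log2 fold change -0.39, adjusted p = 0.601, limma). *Lcn2*, lipocalin 2, was at 2.89, 2.34 and 1.13 CPM in MMAB ASO livers 1, 2 and 4, against 53.3, 2.65 and 32.8 CPM in CON ASO livers 1, 2 and 4 (log2 fold change -3.08, adjusted p = 0.0600, limma). *Saa1*, serum amyloid A1, was at 394, 83.6 and 6.27 CPM in MMAB ASO livers, against 730, 69.0 and 759 CPM in CON ASO livers (log2 fold change -2.51, adjusted p = 0.307, limma). *Saa2* was at 101, 18.1 and 1.48 CPM in MMAB ASO livers and 186, 13.1 and 268 CPM in CON ASO livers. *Saa1* and *Saa2* are near-identical neighbours, and how reads shared by them were divided is uncertain. CON ASO liver 2 sat with the MMAB ASO livers for *Lcn2*, *Saa1* and *Saa2*, and MMAB ASO liver 1 had the highest *Saa1* of its group. MMAB ASO liver 1 was also the liver with the highest *Cebpb* and *Nr4a1* and the lowest *Foxa3* and *Cebpa* of all 6 livers.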
